A study of Homo sapiens with 24 samples.

Results

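The combined treatment examined here is U87 Si306 + 10 Gy, that is, U87 cells given the SRC inhibitor Si306 (10 µM) and a proton dose of 10 Gy, set against untreated U87 cells. U87 MG is an established human glioblastoma line, grown in culture without stroma, blood or immune cells, and RNA was collected 24 h after irradiation. No array compared these 2 RNAs directly. The net change of a gene was therefore the sum of 2 log2 ratios of Cy5 to Cy3. The radiation term compared U87 10 Gy (Cy5) with untreated cells (Cy3), and the Si306 term compared U87 Si306 + 10 Gy (Cy5) with U87 10 Gy (Cy3), so the control of the Si306 term carried the radiation too. Of the 24 deposited scanner tables of the series, 11 belonged to these comparisons, 5 of U87 10 Gy and 6 of U87 Si306 + 10 Gy. They were repeat scans of 4 of the 8 arrays, with 2 arrays for each term, and the radiation term lay on 1 slide and the Si306 term on another. A further scan labelled U87 10 Gy lay on an array of U87 2 Gy and was left out. The scans of an array were averaged, so n = 2 arrays per term. Nothing in the headers tells separate cultures apart for the arrays of a term, and the p-values below measure the spread between arrays, which may be technical. The arrays of a term shared a slide, so the p-values and standard errors (SE) hold no spread between slides.

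Ionizing radiation breaks DNA and activates the transcription factor p53, which switches on genes for cell cycle arrest, repair and death, while genes needed for mitosis fall as cells stop dividing. SRC is the founding member of a family of tyrosine kinases that pass signals from integrins and growth factor receptors to the cytoskeleton and to transcription, and it is often overactive in glioblastoma. Si306 blocks SRC. The sum of both terms asks which radiation changes were deepened, reduced or left by the compound.

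The RNA labelled U87 10 Gy did not have the same profile on the 2 slides, and every sum below has to be read with that measurement beside it. It was the Cy5 sample on the slide of the radiation term (slide 1) and the Cy3 sample on the slide of the Si306 term (slide 2). Levels are given as log2 intensity after loess and after quantile scaling of the mean intensities across arrays. Among 15963 genes that were well above background in all RNAs of both terms, the level of the 10 Gy RNA differed by 2-fold or more between the slides for 4910 genes (30.8%) and by 10-fold or more for 323. The 2 Gy RNA, treated the same way, differed by 2-fold or more for 4614 of 15022 genes (30.7%). Within slide 1, by contrast, the 2 Gy and the 10 Gy RNA, both in Cy5, differed that much for 23 of 15529 genes (0.148%). A further 1060 genes were well above background in both channels of slide 1 and in neither channel of slide 2, and 669 the other way round.

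UCHL1, a neuronal ubiquitin hydrolase, had a level of 16.35 in the untreated and 16.45 in the 10 Gy RNA of slide 1, but 6.02 in the 10 Gy RNA and 6.12 in the Si306 + 10 Gy RNA of slide 2, which is the level of dim probes. SPP1 (osteopontin) and FOXD1 (a forkhead transcription factor) were likewise bright on slide 1 alone, with 14.28 against 6.27 and 13.85 against 6.06 in the 10 Gy RNA. PAGE5, a cancer-testis antigen, went the other way, with 6.14 on slide 1 and 15.45 on slide 2, and so did COL18A1 (a basement membrane collagen) with 6.33 and 15.05 and C19orf33 with 6.30 and 15.77. For these genes 1 term came from dim spots, and the sums were 0.20 for UCHL1, -0.29 for SPP1, -0.22 for FOXD1, 0.14 for PAGE5, -0.09 for COL18A1 and 0.24 for C19orf33. The other probe of FOXD1 had a net of 0.46. Set directly across the slides, the Si306 + 10 Gy RNA would be at least 623-fold above the untreated RNA for PAGE5, 388-fold for COL18A1 and 835-fold for C19orf33. These bounds compare the slides as much as the treatments.

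**Figure D1:**
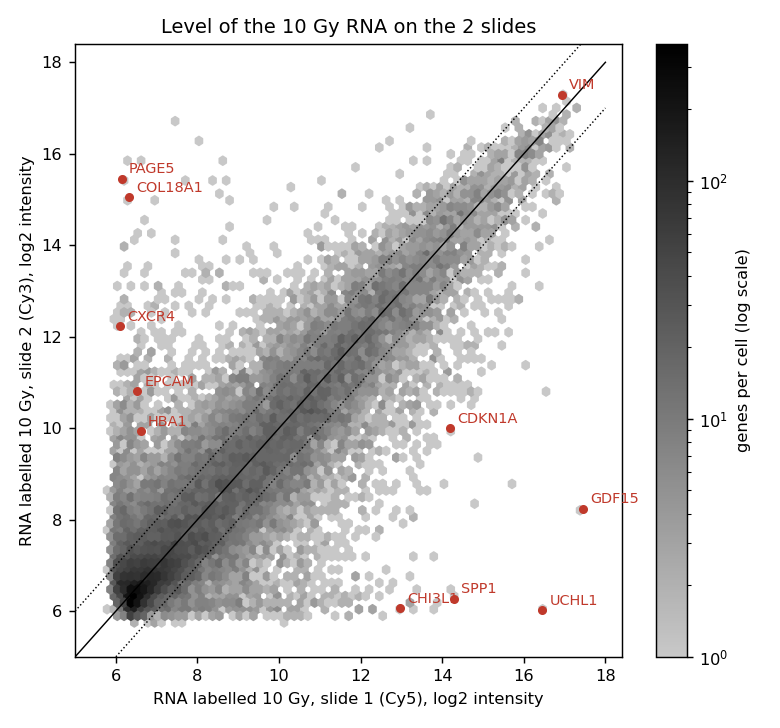
Log2 intensity of the RNA labelled 10 Gy on slide 1 (Cy5, x axis) and on slide 2 (Cy3, y axis), with all 22557 tested genes as shaded cells, the solid line for equal levels and dotted lines for a 2-fold difference. The named genes in red lie far from the line, except VIM, with UCHL1 at 16.45 and 6.02 and PAGE5 at 6.14 and 15.45.

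Markers of the labelled cell type were only partly shared. Of 8 markers of mesenchymal glioblastoma cells, VIM (vimentin), FN1 (fibronectin), S100A6, CD44, NES, TNC and SPARC were well above background on both slides, while CHI3L1, a glycoprotein that marks the mesenchymal class, had a level of 12.95 in the 10 Gy RNA on slide 1 and 6.06 on slide 2. EPCAM, an epithelial adhesion molecule, had 6.52 on slide 1 and 10.81 on slide 2, and PECAM1, an endothelial one, 6.15 and 9.16. The other endothelial markers tested, VWF and CDH5, lay between 6.08 and 6.58 in the 10 Gy RNA on both slides. The leukocyte markers CD3E, CD14 and ITGAM lay between 6.35 and 7.40, and the erythroid marker ALAS2 at 6.93 and 6.56. Of the 10 marker genes that did not enter the test, 3 belonged to oligodendrocytes, 3 to erythroid cells, 2 to epithelia, 1 to leukocytes and 1 to neurons. Whether the same cells were used on both slides was not tested, and the part of this difference in the sums below was not tested either. Each term on its own compares RNAs of a single array.

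A gene was called changed when it differed by 2-fold or more and had an adjusted p under 0.05 in limma, with Benjamini-Hochberg adjustment over all genes tested. Of 22557 genes, 490 (2.17%) were called in the net change, 336 higher (1.49%) and 154 lower (0.683%). The radiation term called 217 genes (0.962%), 186 higher (0.825%) and 31 lower (0.137%), and the Si306 term 82 (0.364%), 64 higher (0.284%) and 18 lower (0.0798%). With median centring of the scans in place of loess, the median net of all genes moved by 0.469 and the net calls became 6294 higher and 43 lower, and 17 of the named genes that had a net below 0 had one above 0. Of the 16241 genes whose level of the 10 Gy RNA, in Cy5 on slide 1 and Cy3 on slide 2, differed by under 2-fold between the slides, 190 were called in the net change, 116 higher and 74 lower, and 29 in the radiation term. The level of the 10 Gy RNA is part of both terms, so an error in it enters both a term and this limit. The counts under the limit are therefore not independent of the terms. A limit on the mean level of both channels left 207 net calls of 16482 genes, but that mean holds part of the net change itself, so the limit also removes genes for the size of their net.

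The net calls drew on the terms unequally. Of the 336 net rises, 152 were called in the radiation term alone, 53 in the Si306 term alone and 131 in neither, and none in both. Of the 154 net falls, 21 were called in the radiation term alone, 10 in the Si306 term alone and 123 in neither. Every gene called in neither term had terms of the same sign, as the sum requires. Probes of 60% GC or more, which made up 5.05% of the genes tested, made up 36.6% of the net rises and 1.95% of the net falls. Of the 152 net rises called in the radiation term alone, 111 lay on such probes. The dyes were never swapped, so an effect of the dye on a probe enters the sum once per term, and its part in these rises was not tested.

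Of the 186 rises in the radiation term, 1 was deepened by Si306 (a term of 1.5-fold or more in the same direction with an adjusted p under 0.05), 170 were left, 7 were lessened and 8 were cancelled, meaning that the net change came to under 1.5-fold. Of the 31 falls, none was deepened, 28 were left, 1 was lessened and 2 were cancelled. No radiation change was turned into a net of 1.5-fold or more on the other side. These counts are those with loess. With the scanner's own log ratio 100 of 845 radiation changes were deepened, 58 rises and 42 falls, and 70 were reduced. The series matrix gave 100 of 846 deepened, also 58 rises and 42 falls. With median centring 228 of 770 were deepened, all of them rises, and 7 were reduced. Over all genes, 3.72% had a Si306 term of that size, 2.08% higher and 1.64% lower. Of the 18 reduced changes, 9 lay on GC-rich probes. The RNA labelled 10 Gy is the numerator of the radiation term and the denominator of the Si306 term. With the limit on the radiation change lowered to 1.5-fold, 720 genes rose, of which 13 were deepened, 7 lessened and 17 cancelled, and 345 fell, of which 18 were deepened, 1 was lessened and 10 were cancelled. The share left was 94.9% of the rises and 91.6% of the falls.

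**Figure D2:**
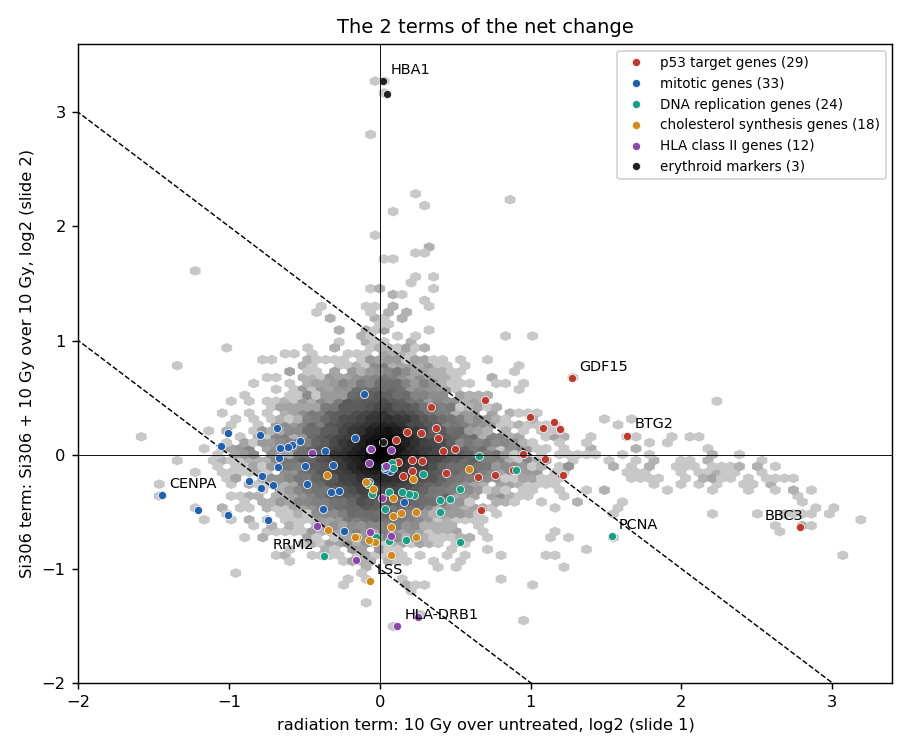
Radiation term (x axis) against Si306 term (y axis), both as log2 ratios, with all tested genes as shaded cells and the members of 6 gene lists in colour. Dashed lines mark a net change of 2-fold, and the p53 targets spread along the x axis while HBA1, the cholesterol genes and the HLA class II genes spread along the y axis.

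The radiation change that Si306 deepened with loess was that of GDF15, a secreted stress cytokine and p53 target. Its radiation term was 1.27 and 1.28 on the 2 arrays and its Si306 term 0.74 and 0.61. All 4 values were positive, and the net change was 1.95 ± 0.05 (SE, n = 2 arrays per term), 3.86-fold, with a limma adjusted p of 6.96e-10. The 10 Gy RNA had a GDF15 level of 17.46 on slide 1 and 8.24 on slide 2, so the deepening was measured at a far lower level than the rise.

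Reduced changes ran in both directions. IPO7, which imports ribosomal proteins into the nucleus, had radiation values of 1.06 and 1.00 and Si306 values of -1.14 and -1.18. The terms had opposite signs on every array, and the net was -0.13 ± 0.06 (limma adjusted p = 0.0732), which counts as cancelled. A further probe of IPO7 had a net of 0.06, and with median centring the net was 0.71, past the 1.5-fold limit of that class. ADAMTS1, a secreted protease of the matrix, fell by 1.06 and 1.02 with radiation and had Si306 values of 0.89 and 1.00, for a net of -0.09 ± 0.05 (limma adjusted p = 0.153). Its other probe had a net of 0.26, and with median centring the net was 1.0003. The ADAMTS1 level of the 10 Gy RNA was 13.21 on slide 1 and 9.49 on slide 2. QKI, an RNA-binding regulator of splicing, had -1.37 and -1.32 from radiation and 0.78 and 0.71 from Si306, which lessened its net to -0.60. Its other 3 probes had nets between -0.44 and 0.66, and with median centring the net was 0.14. PCNA, the sliding clamp of DNA polymerase and a p53 target, had radiation values of 1.55 and 1.52 and Si306 values of -0.72 and -0.71, and its net of 0.82 ± 0.04 was 1.77-fold.

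Targets of p53 carried their radiation rise into the net. All 29 tested members of the list had a radiation term above 0 with an adjusted p under 0.05, a test that 31.3% of all genes passed as higher and 26.3% as lower. In the Si306 term 13 were higher and 9 lower, where 35.3% of all genes were higher and 27.3% lower. In the net, 26 were higher and none lower by adjusted p, a test that 66.1% of all genes passed (38.7% higher and 27.4% lower), and 10 were called, against 1.49% of all genes called higher. The median net of the list was 0.59 and that of all genes 0.05, with list medians of 0.65 in the radiation and 0.03 in the Si306 term. With median centring the list median was 1.62, where that of all genes was 0.52. With the radiation limit at 1.5-fold, 15 members rose and 13 of them were left by Si306, beside 94.9% of all rises.

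BTG2, which restrains proliferation, had radiation values of 1.72 and 1.56 and Si306 values of 0.22 and 0.11, for a net of 1.81 ± 0.06 (3.5-fold, limma adjusted p = 4.97e-09). CDKN1A, the p21 inhibitor of cyclin-dependent kinases, had 1.19 and 1.20 from radiation and 0.23 and 0.21 from Si306, for a net of 1.42 ± 0.04 (2.67-fold). Its net on the other probe was 1.38. FDXR (a mitochondrial reductase) rose by 1.44, TP53INP1 (a stress-induced cofactor of p53) by 1.33 and TRIAP1 (an inhibitor of apoptosis) by 1.32 in the net. In each of these 5 genes both terms were above 0 on all arrays, and the Si306 term was under 1.5-fold. BBC3, which encodes the death protein PUMA, had a radiation term of 2.79, a Si306 term of -0.64 and a net of 2.15 on a GC-rich probe, with 0.36 and 1.38 on its other probes. The 3 members that did not pass the test in the net were GADD45A at 0.07, CCNG1 at 0.06 and BAX at -0.03. In 2 of the 10 called members, PPM1D and TRIAP1, the level of the 10 Gy RNA lay within 2-fold between the slides, and CDKN1A had 14.20 and 10.00 in the 10 Gy RNA.

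Genes of mitosis fell as a group. Of 33 tested members, 28 were lower and 1 higher in the net by adjusted p, beside 27.4% and 38.7% of all genes, and 6 were called lower, against 0.683% of all genes. The median was -0.62 in the net, -0.59 in the radiation term and -0.12 in the Si306 term. With median centring the median net of the list was 0.36, where that of all genes was 0.52. In the Si306 term 19 members were lower and 6 higher by adjusted p, beside 27.3% and 35.3% of all genes. With the radiation limit at 1.5-fold, 17 members fell and all 17 were left by Si306, beside 91.6% of all falls.

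CENPA, the histone variant that marks centromeres, had radiation values of -1.42 and -1.47 and Si306 values of -0.35 and -0.37. Both terms were below 0 on every array, and the net was -1.80 ± 0.05 (3.48-fold lower, limma adjusted p = 7.39e-10). KIF20A, a kinesin of the late spindle, had a net of -1.69 ± 0.04 and KIF23, another kinesin of cytokinesis, -1.53 ± 0.07. PLK1, the kinase that drives mitotic entry, had a radiation term of -0.74 and a Si306 term of -0.57, neither of them called, and their sum of -1.31 was called. The other probe of PLK1 had a net of -0.55, under 2-fold. UBE2C, a ubiquitin carrier of the anaphase-promoting complex, fell by 1.10, and with median centring its net was 0.23. Cyclin A2 (CCNA2) fell by 1.09. Of the 6 called members, PLK1 alone had a level of the 10 Gy RNA within 2-fold between the slides. FAM83D, a spindle protein outside the list, had -0.92 from radiation and -0.72 from Si306, for a net of -1.64 ± 0.05. CKS2, a subunit of cyclin-dependent kinases, was the member above 0 at 0.43.

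Promoters of the falling mitotic genes are shown because these genes are known to share control elements near their start sites. In the 250 bases upstream of the RefSeq start, on either strand, the element TTTGAA (the cell cycle homology region, CHR) was found in 16 of the 28 members with a promoter entry (57.1%) and in 13.3% of all 35116 promoters. The CCAAT box was found in 23 of these 28 (82.1%) and in 32.0% of all promoters. The 200 bases before the start of the 3 members with the largest net fall follow, with matches to both motifs in capitals (build GRCh38.p14).
CENPA, chr2:26785856-26786055, plus strand: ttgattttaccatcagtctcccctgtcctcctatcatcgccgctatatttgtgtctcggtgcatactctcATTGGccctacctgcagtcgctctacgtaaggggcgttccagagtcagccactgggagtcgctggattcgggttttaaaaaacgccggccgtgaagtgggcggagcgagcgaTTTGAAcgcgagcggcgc
KIF20A, chr5:138178912-138179111, plus strand: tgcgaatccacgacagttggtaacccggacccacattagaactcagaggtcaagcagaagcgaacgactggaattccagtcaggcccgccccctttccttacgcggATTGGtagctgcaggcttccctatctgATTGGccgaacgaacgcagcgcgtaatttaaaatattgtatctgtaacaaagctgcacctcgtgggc
KIF23, chr15:69414149-69414348, plus strand: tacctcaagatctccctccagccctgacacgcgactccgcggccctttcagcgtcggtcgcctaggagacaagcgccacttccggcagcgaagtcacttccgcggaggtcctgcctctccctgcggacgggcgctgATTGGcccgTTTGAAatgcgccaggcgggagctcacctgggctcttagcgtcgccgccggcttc
CENPA held a CHR 18 bases before the start and KIF23 held one 55 bases before it, with a CCAAT box 64 bases before it. KIF20A held CCAAT boxes 94 and 67 bases before the start and no TTTGAA in this window. A match describes the letters only.

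**Figure D3:**
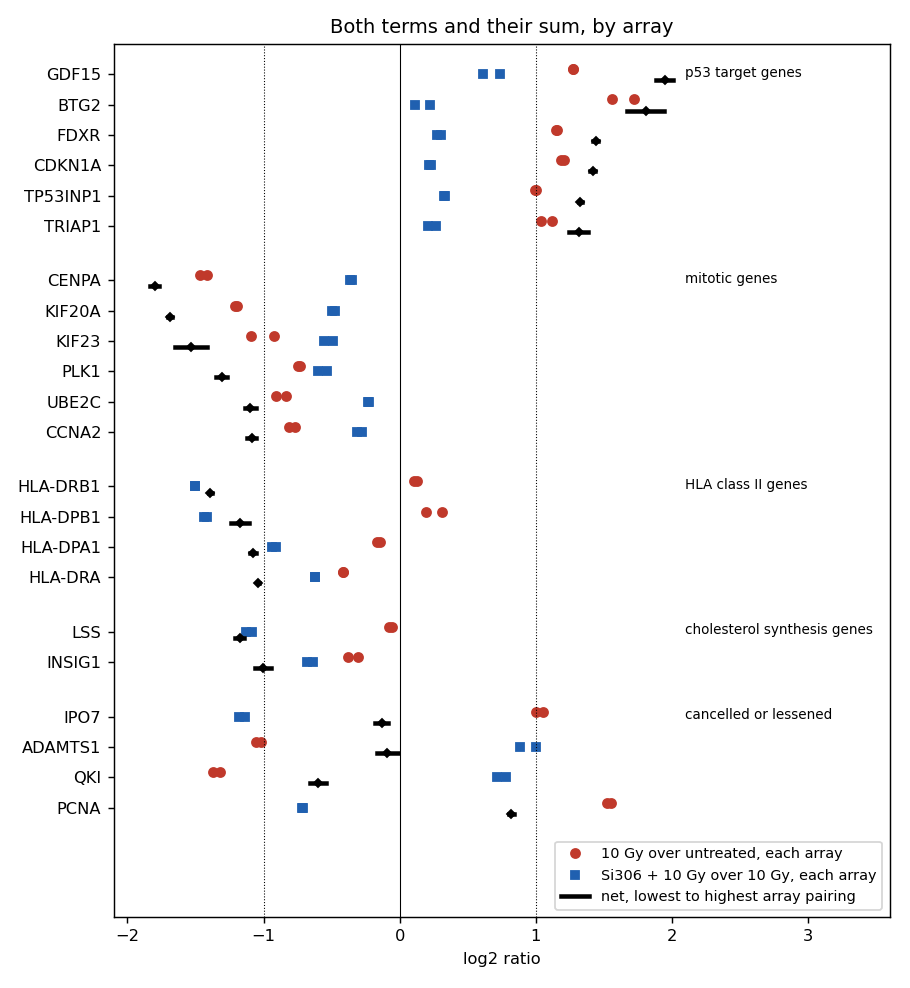
Log2 ratio on each array for the radiation term (red circles, 2 arrays) and the Si306 term (blue squares, 2 arrays), with the net as a black diamond on a bar from the lowest to the highest pairing of arrays, for 22 named genes in 5 groups. The arrays of a term lie close together for every gene, the net of the p53 targets follows the red circles, and that of HLA-DRB1 and LSS follows the blue squares.

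Genes of DNA replication were mostly lower in the Si306 term, where 22 of 24 were lower and none higher by adjusted p, beside 27.3% and 35.3% of all genes. In the radiation term 13 were higher, 1 was lower and 10 did not pass the test, beside 31.3% of all genes higher and 26.3% lower. In the net, 12 were lower, 4 higher and 8 did not pass the test, beside 27.4% of all genes lower and 38.7% higher. The medians were 0.16 for radiation, -0.35 for Si306 and -0.14 for the net, and with median centring the net median was 0.89 where that of all genes was 0.52. RRM2, the small subunit of ribonucleotide reductase, was the called member, beside 0.683% of all genes called lower, with radiation values of -0.33 and -0.42, Si306 values of -0.88 and -0.90 and a net of -1.26 ± 0.05 (2.40-fold lower, limma adjusted p = 8.21e-09). All 4 values were below 0. A further probe of RRM2 had a net of 0.49. UHRF1, a reader of hemimethylated DNA, had a net of -0.81 that came almost wholly from Si306 (-0.77), and with median centring its net was 0.19. TYMS (thymidylate synthase) had 0.90 from radiation, -0.13 from Si306 and 0.77 in the net, and TK1 (thymidine kinase) had 0.40, -0.39 and 0.00.

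Genes of cholesterol synthesis and uptake were lower through the Si306 term. Of 18 members, 17 were lower and none higher in that term by adjusted p, beside 27.3% and 35.3% of all genes, and 16 were lower and 1 higher in the net, beside 27.4% and 38.7%. In the net 2 were called lower, beside 0.683% of all genes. The medians were 0.02 for radiation, -0.58 for Si306 and -0.51 for the net. With median centring the net median was 0.39, where that of all genes was 0.52. LSS (lanosterol synthase) had radiation values of -0.08 and -0.06, Si306 values of -1.09 and -1.13 and a net of -1.18 ± 0.05 (2.26-fold lower, limma adjusted p = 1.52e-08). The other 3 LSS probes had nets between -0.79 and -0.34. INSIG1, the sterol sensor that retains SREBP in the endoplasmic reticulum, had a net of -1.004. SQLE (squalene epoxidase) had -0.82 and IDI1 (isopentenyl diphosphate isomerase) -0.81. Of the 2 called members LSS alone had a level of the 10 Gy RNA within 2-fold between the slides. MVD, a decarboxylase of the same pathway, was higher at 0.46.
The promoters of the 2 called members are shown with CCAAT boxes in capitals. The box was found in 10 of 12 members with a promoter entry (83.3%), and the sterol element CACCNCAC in 1 of 12 (8.33%), against 32.0% and 4.99% of all promoters.
LSS, chr21:46228775-46228974, minus strand: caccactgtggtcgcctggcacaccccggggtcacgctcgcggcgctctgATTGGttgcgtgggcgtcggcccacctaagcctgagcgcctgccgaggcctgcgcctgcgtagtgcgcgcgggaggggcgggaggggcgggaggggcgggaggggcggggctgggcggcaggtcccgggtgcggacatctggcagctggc
INSIG1, chr7:155297678-155297877, plus strand: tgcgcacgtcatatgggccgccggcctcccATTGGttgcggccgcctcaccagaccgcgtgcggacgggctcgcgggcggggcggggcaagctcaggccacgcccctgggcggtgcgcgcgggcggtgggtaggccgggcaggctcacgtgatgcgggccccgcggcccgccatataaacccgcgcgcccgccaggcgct
The box lay 150 bases before the start of LSS and 170 before that of INSIG1.

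HLA class II genes, which present peptides to helper T cells, were lower through the Si306 term as well. Of 12 members, 8 were lower and none higher in the net by adjusted p, beside 27.4% and 38.7% of all genes, and 4 were called lower, beside 0.683%. The medians were -0.02 for radiation, -0.50 for Si306 and -0.54 for the net, and -0.14 for the net with median centring. HLA-DRB1 had radiation values of 0.10 and 0.12 and Si306 values of -1.51 on both arrays, for a net of -1.39 ± 0.05 (2.62-fold lower, limma adjusted p = 2.91e-09). The radiation term ran slightly the other way. HLA-DPB1 had a net of -1.17, HLA-DPA1 -1.08 and HLA-DRA -1.04. The other probe of HLA-DPB1 had -0.76 and that of HLA-DPA1 -0.41. In HLA-DRA the radiation term of -0.42 added to a Si306 term of -0.62. The invariant chain CD74 had -0.64, while CIITA, the master activator of the class, had -0.14 and did not pass the test (limma adjusted p = 0.0758). The HLA-DRA level of the 10 Gy RNA was 11.08 on slide 1 and 8.89 on slide 2, and of the 4 called members HLA-DRB1 alone, with 12.66 and 12.53, had a level within 2-fold between the slides. HLA genes resemble each other and a probe can bind more than 1 of them. Among HLA class I and peptide loading genes, 6 of 16 were higher and 5 lower in the net by adjusted p, shares near those of all genes, and none was called, beside 2.17%. PSMB9, a subunit of the immunoproteasome, had -0.73 and HLA-G 0.51, and with median centring the net of PSMB9 was 0.38.

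Interferon-stimulated genes did not move as a group. Of 35 members, 14 were higher and 11 lower in the net by adjusted p, near the 38.7% and 27.4% of all genes. Of these members 2 were called higher and 1 lower, beside 1.49% and 0.683% of all genes, and the median was 0.05, as over all genes. OASL, which binds viral RNA sensors, had radiation values of 0.25 on both arrays, Si306 values of 1.55 and 1.56 and a net of 1.80 ± 0.04 (3.49-fold, limma adjusted p = 3.73e-10). HERC6 had a net of 1.35, with 0.10 on its other probe. The level of the 10 Gy RNA was 9.16 on slide 1 and 12.15 on slide 2 for OASL, and 8.10 and 9.93 for HERC6. Of 14 complement genes, C1S, the serine protease of the classical pathway, was called lower, beside 0.683% of all genes, with a net of -1.003, which came from a Si306 term of -1.19.

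The largest net rise of all named genes was that of a haemoglobin gene. HBA1 (alpha globin) had radiation values of 0.03 and 0.01 and Si306 values of 3.25 and 3.30, for a net of 3.30 ± 0.05 (9.83-fold, limma adjusted p = 4.44e-11). The Si306 arrays stood far above the radiation arrays, and the level rose from 9.93 to 13.21 on slide 2, while slide 1 had 6.58 and 6.60. HBA2, a near-identical copy, had a net of 3.21, with 0.20 on its other probe. Their probes cannot be taken as telling the copies apart, and the probe of HBA1 has 60% GC. ALAS2, which makes haem in red cell precursors, had a net of 0.13 and did not pass the test (limma adjusted p = 0.0548).

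Among genes with a current symbol and a probe under 60% GC that was well above background in all RNAs, the largest rises came from different terms. CKB (brain creatine kinase), LBX1 (a homeobox factor) and COX6A2 (a subunit of cytochrome oxidase) rose through radiation terms of 2.25, 2.79 and 2.19, for nets of 2.71, 2.29 and 2.20. Their probes have 58.3%, 55.0% and 55.0% GC, and the other probe of CKB had a net of 0.30. On GC-rich probes CDC42EP5 (71.7% GC), an effector of CDC42, rose by 2.62 and GPR153 (80% GC) by 2.58. Others rose through the Si306 term. APOL6, an apolipoprotein L family member, had 0.29 from radiation, 2.15 from Si306 and a net of 2.44 ± 0.06, with -0.13 on its other probe. DCN (decorin), a matrix proteoglycan, had radiation values of 0.30 and 0.29, Si306 values of 1.79 and 1.78 and a net of 2.08 ± 0.04 (4.24-fold). Its level in the 10 Gy RNA was 7.65 on slide 1 and 8.82 on slide 2. TDRD10 had a net of 2.12 and GNG13, a G protein gamma subunit, one of 2.03. CTNNB1 (beta-catenin) drew on both, with 0.99 and 1.02, for a net of 2.02 ± 0.04, and 0.81 on its other probe.

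In the other large falls of KLF6, ACSL3, TXNRD1 and MCM3AP-AS1 both terms were below 0. KLF6, a zinc finger factor of early responses, had -0.58 from radiation and -0.95 from Si306, for a net of -1.53 ± 0.04, and its other 2 probes had -1.17 and -0.32. ACSL3 (an acyl-CoA synthetase) had a net of -1.55, with 0.09 on its other probe, TXNRD1 (thioredoxin reductase) had -1.55 and the antisense transcript MCM3AP-AS1 had -1.58. The other 2 probes of MCM3AP-AS1 had nets of -0.82 and -0.29. FOS, a subunit of the AP-1 factor, had radiation values of -1.55 and -1.61 and Si306 values of 0.16 and 0.12, for a net of -1.44 ± 0.05. Its fall came from the radiation term. Of 20 immediate early genes, KLF6 and FOS were the 2 called, both lower, beside 0.683% of all genes. By adjusted p 11 of the 20 were higher and 6 lower in the net, beside 38.7% and 27.4% of all genes. The median net of the list was 0.24. Among the 13 called genes that the rule for named genes selected and that had other probes, 3 had a probe of the opposite sign, and in 1 all other probes passed 2-fold in the same direction.

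**Figure D4:**
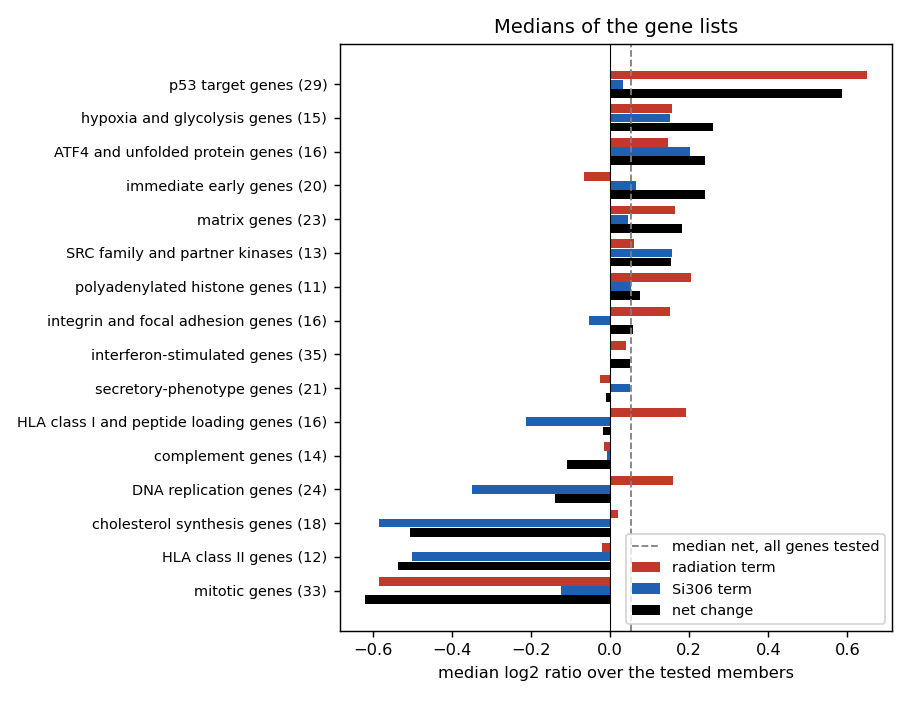
Median log2 ratio over the tested members of 16 gene lists (number of members in brackets) for the radiation term (red), the Si306 term (blue) and the net change (black), with the median net of all genes as a dashed line at 0.05. The p53 targets (0.59) lie highest, and the mitotic genes (-0.62), HLA class II genes (-0.54) and cholesterol genes (-0.51) lie lowest. With median centring the medians of the mitotic and cholesterol genes were above 0.

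The target of the compound changed by under 2-fold. SRC had radiation values of 0.27 and 0.26, Si306 values of 0.18 and 0.17 and a net of 0.44 ± 0.04 (1.35-fold, limma adjusted p = 5.95e-06), at levels of 6.67 to 7.25, close to those of dim probes. Of 13 SRC family and partner kinases, 7 were higher and 3 lower in the net by adjusted p, beside 38.7% and 27.4% of all genes, and none was called, beside 2.17%. Among the 13 kinases, 7 were well above background in all RNAs. SRC, FGR, FRK, BLK and LCK, counted as higher, were not. ABL2, a related tyrosine kinase, had a net of 0.69, with 0.05 on its other probe, PTK2 (focal adhesion kinase) had -0.34 and LYN 0.27. With median centring the net of PTK2 was 0.67. Among 16 integrin and focal adhesion genes, FLNA (filamin A), which crosslinks actin, was called higher, beside 1.49% of all genes. Its radiation term of 1.58 was followed by a Si306 term of -0.45, for a net of 1.12. The FLNA level of the 10 Gy RNA was 11.32 on slide 1 and 8.20 on slide 2. In the net ITGB3 (integrin beta 3) had 0.91, with -0.24 and 0.57 on its other probes, and ZYX (zyxin) 0.79.

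Of 16 targets of ATF4 and the unfolded protein response, 9 were higher and 3 lower by adjusted p, where 38.7% of all genes were higher and 27.4% lower, and 2 were called higher, beside 1.49%. DDIT4, an inhibitor of mTORC1, was called at 1.38 ± 0.06, of which 1.07 came from Si306, and DDIT3 (CHOP) was called at 1.10. In neither did the level of the 10 Gy RNA lie within 2-fold between the slides. It was 14.68 on slide 1 and 11.88 on slide 2 for DDIT4, and 13.27 and 8.08 for DDIT3. DNAJB9, a chaperone, had a net of 0.71. At 2.17% of all genes called, none was called of 15 hypoxia and glycolysis genes, of 21 genes of the secretory phenotype of senescent cells or of 11 polyadenylated histone genes. Of the hypoxia genes ADM (adrenomedullin) had the largest net at 0.75, followed by CA9 (carbonic anhydrase) at 0.62 and ALDOA (aldolase) at 0.49. Of 23 matrix genes 2 were called higher, DCN and COL3A1, beside 1.49% of all genes. COL3A1 (a collagen) was not well above background in all RNAs, with levels of 6.29 and 6.32 on slide 1 and 9.81 and 10.88 on slide 2. COL1A2, another collagen, had 0.86, with -0.06 on its other probe, and TNC (tenascin C) -0.97. Of the secretory genes CXCL1 (a neutrophil chemokine) had -0.98 and MMP1 (collagenase) 0.56. The histone genes H2BC8, H2BC4 and H2BC5 had nets of 0.74, 0.72 and -0.41, with 0.79 on the other probe of H2BC5. VIM had -0.87 and SPARC 0.66. With median centring the nets of TNC, H2BC5 and VIM were 0.23, 0.42 and 0.85.

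The net of Si306 + 2 Gy over untreated cells was the most similar comparison. Both nets had a control labelled untreated, and whether it was 1 RNA extract is not given in the sources used here. In the difference of the nets a constant dye effect of the probe cancels, as would an untreated RNA common to both. Of 22517 genes, 68 differed (0.302%), 22 with the higher net at 10 Gy and 46 with the lower net. With median centring they were 53 and 220. FOS had a net of -1.44 at 10 Gy and 1.23 at 2 Gy, a difference of -2.67 (limma adjusted p = 7.37e-09). EGR1, another immediate early factor, had 0.15 and 1.75, a difference of -1.60. ARHGEF15, an exchange factor for RhoA, had 1.22 and 3.27, CCR3 (a chemokine receptor) 0.33 and 2.53, HSPA6 (a heat shock protein) -0.14 and 1.45, ADM 0.75 and 1.94 and ADAMTS1 -0.09 and 1.11. In the other direction PVALB (parvalbumin) had 0.34 at 10 Gy and -1.19 at 2 Gy, TUBA8 (an alpha tubulin) 1.14 and -0.35, DCN 2.08 and 0.69, CD86 (a costimulatory molecule) -0.07 and -1.09 and BTG2 1.81 and 0.79. The Si306 + 2 Gy term of DCN and ADAMTS1 and the 2 Gy radiation term of PVALB came from 1 array. The other probe of CD86 had a net of 0.55 at 10 Gy, and the CD86 level of the 10 Gy RNA was 6.90 on slide 1 and 14.97 on slide 2.

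The p53 targets had the higher net at 10 Gy. By adjusted p alone, which 23.5% of all genes passed (10.4% higher and 13.1% lower at 10 Gy), 23 of 29 were higher at 10 Gy and 1 lower, with a median difference of 0.43. Among mitotic genes 12 were lower at 10 Gy and 2 higher, with a median of -0.11. Interferon-stimulated genes were higher at 10 Gy in 21 of 35 members and lower in none, and immediate early genes were lower in 12 of 20 and higher in 2. None of the 18 cholesterol genes was higher at 10 Gy, and 6 were lower.

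**Figure D5:**
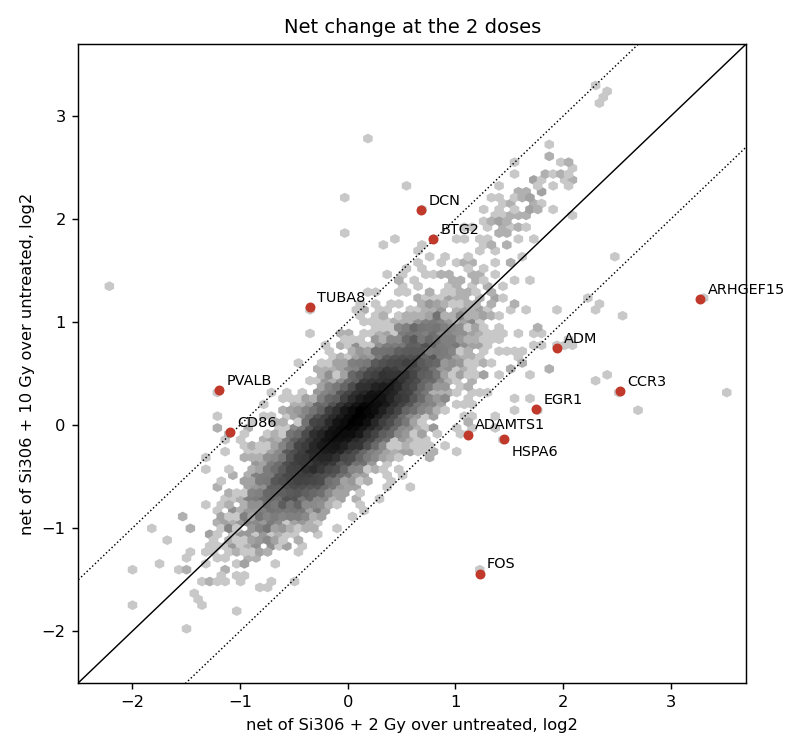
Net change of Si306 + 2 Gy (x axis) against that of Si306 + 10 Gy (y axis), both over untreated cells as log2 values, with all tested genes as shaded cells, the solid line for equality and dotted lines for a 2-fold difference between the doses. Of the 12 named genes, FOS lies farthest below the line at 1.23 and -1.44, and PVALB, TUBA8, DCN, BTG2 and CD86 lie above it.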

How the data were processed

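Two-colour Agilent 4x44K arrays of total RNA from U87 MG cells were analysed, with Cy5 holding the treated and Cy3 the control RNA and no dye swap. The authors deposited Agilent Feature Extraction tables, with spot intensity before and after background subtraction and a log10 ratio per spot, written with decimal commas, and a series matrix of the same log10 ratios. Log2 ratios were computed here from the deposited intensity values. The 24 tables were 3 scans each of 8 arrays on 2 slides, and 2 scans whose label and array disagreed were left out. Outlier spots were removed, mean intensities were background-corrected (normexp, offset 50), each scan was normalized by loess, and replicate spots and then the scans of an array were averaged. Probes well above background in either channel on 2/3 of the arrays of a configuration were kept, and the brightest probe stood for a gene (22557 genes, 14415 with a current RefSeq symbol). Limma 3.58.1 in R 4.3.3 was fitted over all 8 arrays (residual df 4, prior df 6.56) with Benjamini-Hochberg adjustment. The number of arrays limits the precision. The scripts were tested on simulated data.

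In the scans used, 57.3% to 66.5% of spots were well above background in Cy3 and 63.4% to 74.7% in Cy5 for the 10 Gy and Si306 + 10 Gy arrays. Named genes were, among genes with a current symbol and, except for GC-rich probes, bounds and SRC, a probe under 60% GC that was well above background in all RNAs, the 8 largest net rises and falls, up to 5 deepened or reduced changes per direction, the called members of each list (at most 6, or the 3 largest), the 3 largest on GC-rich probes, the 3 largest bounds, the 5 largest dose differences per direction, and SRC. Genes outside this rule (such as BBC3, HBA2, ALAS2, IDI1, SQLE, MVD, TYMS, TK1, CKS2, CIITA, CD74, COL3A1 and the markers) were chosen after their values were seen. The members, the 23 gene lists and the tests were chosen with earlier results of these data known. Alternatives covered the background correction, the normalization, the filter, the choice of probe, the scans, the blocks and each array left out. Promoters are from RefSeq (GRCh38.p14). Some genes that the rule selected are not reported here.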

Additional observations from a re-analysis of the deposited data

Results flagged for a closer look

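The net change differed between the doses for 68 genes by the limma contrast of both nets, at 2-fold or more and an adjusted p under 0.05. The difference, 10 Gy minus 2 Gy on the log2 scale, was 1.40 for DCN, 1.01 for BTG2, 1.53 for PVALB, 1.5 for TUBA8 and 1.02 for CD86. It was -2.67 for FOS, -2.20 for CCR3, -2.05 for ARHGEF15, -1.60 for EGR1, -1.59 for HSPA6, -1.20 for ADM and -1.20 for ADAMTS1. The Si306 + 2 Gy term of DCN and ADAMTS1 and the 2 Gy radiation term of PVALB came from 1 array, and all other terms of these genes from 2.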

How the results depend on the processing

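The 490 net calls, 1 deepened, 18 reduced and 68 dose-dependent changes came to 2424, 100, 70 and 353 with the scanner's own log ratio, 2423, 100, 72 and 353 with the series matrix and 6337, 228, 7 and 273 with median centring. Why these counts differ was not tested. On unadjusted p, without the filter, and with only the arrays of both 10 Gy comparisons, the first 3 counts were the same. Without background correction the counts were 467, 1, 18 and 64, and with all channels well above background 454, 1, 17 and 50. The mean of all probes gave 407, 2, 13 and 57, every probe as a feature 613, 3, 22 and 81, and the scans under their labels 414, 2, 13 and 41. Without GC-rich probes they were 364, 1, 9 and 59. Among genes with a mean level within 2-fold between the slides they were 207, 0, 5 and 33 (unscaled 204, 0, 5 and 36), among genes with a level of the 10 Gy RNA within 2-fold 190, 0, 5 and 38, and with a 1.5-fold limit 2612 net, 31 deepened and 35 reduced. These last 4 alternatives were chosen after seeing the data. Leaving out each array in turn gave 490 to 499, 1 to 2, 17 to 20 and 64 to 81. Without array 2 of U87 10 Gy, or array 2 of U87 Si306 + 10 Gy, 2 changes were deepened.

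Scan numbers did not pair the samples, since same-numbered scans' deviations correlated at 0.025 to 0.072. With each scan as a replicate and the replicate number as a block the counts were 489, 1, 18 and 75, and without the block 490, 1, 18 and 75. With the array as a random block they were 492, 1, 18 and 68.

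A same-dye difference between the slides carries the slide difference of a gene in both terms. The terms then tend to share a sign, and the net holds the slide difference once per term. Such counts of deepened and reduced changes cannot tell how Si306 acted, and such nets are not sizes of a treatment change. This same-dye difference gave 11489, 5657, 2 and 112. It turned the sign of 45 of the named genes: LBX1 -4.20, COX6A2 -4.92, CENPA 3.397, KIF20A 2.92, FAM83D 0.69, ACSL3 0.87, KIF23 1.41, KLF6 0.43, GDF15 -16.49, QKI 1.16, BTG2 -5.54, FDXR -3.92, CDKN1A -6.99, TP53INP1 -1.99, UBE2C 1.33, CCNA2 2.05, RRM2 0.16, UHRF1 5.23, H2BC5 4.08, CD46 2.01, C2 4.52, CCN2 4.81, ABL2 -2.55, PTK2 3.06, FLNA -5.11, ITGB3 -3.10, ZYX -5.29, COL1A2 -6.60, CXCL1 6.83, MMP1 -4.25, DDIT4 -4.22, DDIT3 -9.28, DNAJB9 -1.22, ADM -6.96, CA9 -6.40, ALDOA -2.93, SPARC -4.80, CDC42EP5 -5.21, GPR153 -6.76, COL18A1 17.35, UCHL1 -20.67, CD86 16.07, IPO7 0.71, PSMB9 0.76, SRC -0.71. Median centring turned 17: IPO7 0.71, ADAMTS1 1.0003, QKI 0.14, UBE2C 0.23, UHRF1 0.19, H2BC5 0.42, PSMB9 0.38, CD46 0.34, C2 0.067, CCN2 0.26, PTK2 0.67, TNC 0.23, VIM 0.85, SYT1 0.41, COL18A1 0.47, CD86 0.78, HSPA6 0.25. The scanner's own log ratio turned ADAMTS1 to 0.028, SYT1 to 0.097, C19orf33 to -0.22, PAGE5 to -0.52 and SPP1 to 0.35, the series matrix the same genes to 0.028, 0.096, -0.22, -0.52 and 0.35, and the scans under their labels ADAMTS1 to 0.0053. The depth of the signal limits genes that were dim on 1 slide, where a term of the sum came from spots near background.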
